A study of Homo sapiens with 32 samples.

Results

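The HOX cluster genes are the protein-coding genes of the human GRCh38 RefSeq gene table whose symbol is HOXA, HOXB, HOXC or HOXD followed by a digit. They number 40 of 20037 protein-coding genes, of which 39 are HOX genes and 1 is the readthrough HOXA10-HOXA9 that spans 2 of them. HOXA holds 12 on chromosome 7, HOXB 10 on chromosome 17, HOXC 9 on chromosome 12 and HOXD 9 on chromosome 2. The rule used symbols alone and no measured value. m6A was mapped by MeRIP-seq, in which an antibody against m6A pulls down fragmented RNA (IP) and peaks are called over the Input.

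The 2 cell lines were 786-O, a clear cell renal cell carcinoma (ccRCC) line grown in RPMI1640 with FBS, and RPTEC, renal proximal tubule epithelial cells immortalized with hTERT and grown in DMEM F12 with a growth kit and FBS. Each gave 4 isogenic lines, namely WT, the parental cells, SETD2KO-1 and SETD2KO-2, which are CRISPR/Cas9 knockout clones, and SETD2KO-1R, made from the SETD2KO-1 clone with a full-length FLAG-tagged SETD2 transgene and a further clonal derivation. No further agent was given. With 2 IP libraries per line there were 16 peak lists, 8 per cell line, of which 4 come from SETD2KO and 4 from SETD2-expressing lines (WT and SETD2KO-1R). A line is 1 clone or 1 parental culture, and nothing used here says that its libraries came from separate cultures, so p-values measure the spread between these libraries and SETD2 status cannot be told apart from clone.

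HOX proteins are homeodomain transcription factors that give cells their position along the body axis. Their genes lie in clusters in which neighbours are transcribed the same way, genes of low number being used toward the head and genes of high number toward the tail, and genes of the same number in different clusters are paralogs. In the embryonic kidney the HOX11 paralogs act with EYA1 and PAX2 upstream of SIX2 and GDNF, and adult renal epithelium still expresses many HOX genes. m6A is written on RNA by the METTL3 and METTL14 complex, and H3K36me3, the chromatin mark made by SETD2, is bound by METTL14.

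The lists held 19249 to 39670 peaks each and 474004 in all, with no read counts, so the depth behind a peak is unknown. A gene was called in a library when at least 1 peak overlapped its body by at least 1 bp. Of the renal epithelium markers, PAX8, PAX2, KRT8 and KRT18 were called in all 16 libraries, CDH16 in 3 and CDH1 in none. The proximal tubule genes LRP2, AQP1, HNF4A and SLC34A1 were called in none, also not in RPTEC. CUBN was called in 1 library and SLC5A2 in 8 of 8 786-O and 0 of 8 RPTEC libraries. VIM, an intermediate filament gene listed as a ccRCC marker, was called in 8 of 8 786-O and 6 of 8 RPTEC libraries. The ccRCC marker CA9 was called in none, as were PTPRC and PECAM1, markers of blood and endothelium. COL1A1, a fibroblast marker, was called in 1 of 8 786-O and 6 of 8 RPTEC libraries. SETD2 itself was called in all 16, so its peaks do not check the knockout. An absent call can mean little RNA, few cells that make it or little m6A on it, which the lists cannot tell apart. The lists have no strand, so a HOX gene and an antisense gene over it cannot be told apart either.

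Peaks that overlapped a HOX gene numbered 1005, which is 0.212% of all peaks. Of these, 207 overlapped more than 1 HOX gene, or 138 when the readthrough was left out, because gene bodies nest. HOXA4, HOXA5 and HOXA6 lie within the longest annotated body of HOXA3, HOXB4 lies within HOXB3, HOXA9 and HOXA10 lie within the readthrough, HOXD4 and HOXD3 overlap, and HOXC4, HOXC5 and HOXC6 share a start. Calls at such genes are not independent of each other.

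Upstream sequence is shown for 2 HOX starts where a peak reached over the annotated start in many libraries, as letters from RefSeq (GRCh38.p14) written 5′ to 3′ on the strand of the gene. Of the 40 HOX genes, 21 had an entry in the promoter table, with 27 distinct windows of 250 bases before to 50 after a start, 1 of them shared by HOXC4 and HOXC5. Capitals mark GGACT, a frequent form of the m6A motif, or its reverse complement AGTCC.
HOXD10 upstream, chr2:176116528-176116777, plus strand: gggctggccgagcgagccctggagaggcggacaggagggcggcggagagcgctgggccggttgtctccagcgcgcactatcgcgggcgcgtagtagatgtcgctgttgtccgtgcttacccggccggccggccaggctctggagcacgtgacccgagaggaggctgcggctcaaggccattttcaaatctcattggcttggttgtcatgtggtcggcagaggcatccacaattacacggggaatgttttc
HOXA3 inner start upstream, chr7:27122373-27122622, minus strand: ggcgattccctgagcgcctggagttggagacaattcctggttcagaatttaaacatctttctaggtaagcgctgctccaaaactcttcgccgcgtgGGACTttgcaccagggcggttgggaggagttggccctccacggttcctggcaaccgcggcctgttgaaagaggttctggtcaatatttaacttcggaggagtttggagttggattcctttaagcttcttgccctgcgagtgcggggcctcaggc
The mature microRNA pair made within the clusters that bears on HOXB8 is shown too. Capitals mark the seed, bases 2 to 8.
hsa-miR-196b-5p, from MIR196B between HOXA9 and HOXA10: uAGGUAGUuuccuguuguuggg
hsa-miR-196a-5p, from MIR196A1 in HOXB and MIR196A2 in HOXC: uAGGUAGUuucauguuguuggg
They share the seed AGGUAGU, and miR-196 is known to pair with HOXB8 mRNA.

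The HOXD10 window was overlapped by a peak in all 16 libraries and covered over its whole length in 14. It holds GGACT on neither strand. It was the only HOX window called in all 16, where 0.965% of the windows of all protein-coding genes were. Windows overlapped in 8 or more libraries were those of HOXD10 (16), HOXD8 (10), the inner start of HOXA3 (9) and HOXD11 (8), 4 of 27 against 9.54% of all windows. No library had a peak at 12 of the 27, against 69.1% of all windows. GGACT on either strand was found in 10 of the 27 windows and in 45.3% of all windows, which counts letters in the window and says nothing of a site. At the inner HOXA3 start a peak overlapped the window in 7 of 8 786-O libraries and 2 of 8 RPTEC libraries. The antisense gene HOXA-AS2 lies over the same place.

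HOX genes were called widely in both renal cell lines, and the calls followed position in the clusters. Of the 40, 21 were called in all 16 libraries, where 23.1% of all protein-coding genes were, and 18.6% of the 12260 genes whose length lay within the HOX range of 1677 to 45574 bp. Of the 21, HOXA5, HOXA9, HOXA10, HOXC5 and HOXC6 had only peaks that overlapped another protein-coding gene too. By peaks in a single protein-coding gene, HOXA3, HOXC4 and HOXD3 were called in 15 libraries and HOXA10-HOXA9 in 12. With such peaks alone, a library called 21.2 HOX genes on average in 786-O and 22.6 in RPTEC. In 8 or more libraries 32 of the 40 were called, against 48.5% of all genes and 44.4% of those of a like length. No library called 4 of them, HOXB1, HOXC12, HOXC13 and HOXD12, where 33.0% of all genes were called in none. A further 3 were called in 1 library each: HOXB13 and HOXD13 in RPTEC SETD2KO-2 replicate 1, and HOXC11 in RPTEC SETD2KO-1R replicate 2. HOXD1 was called in 5 RPTEC libraries. These 8 genes sit at the ends of their clusters, HOXB1 and HOXD1 at the low end and HOXB13, HOXC11, HOXC12, HOXC13, HOXD12 and HOXD13 at the high end.

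**Figure D1:**
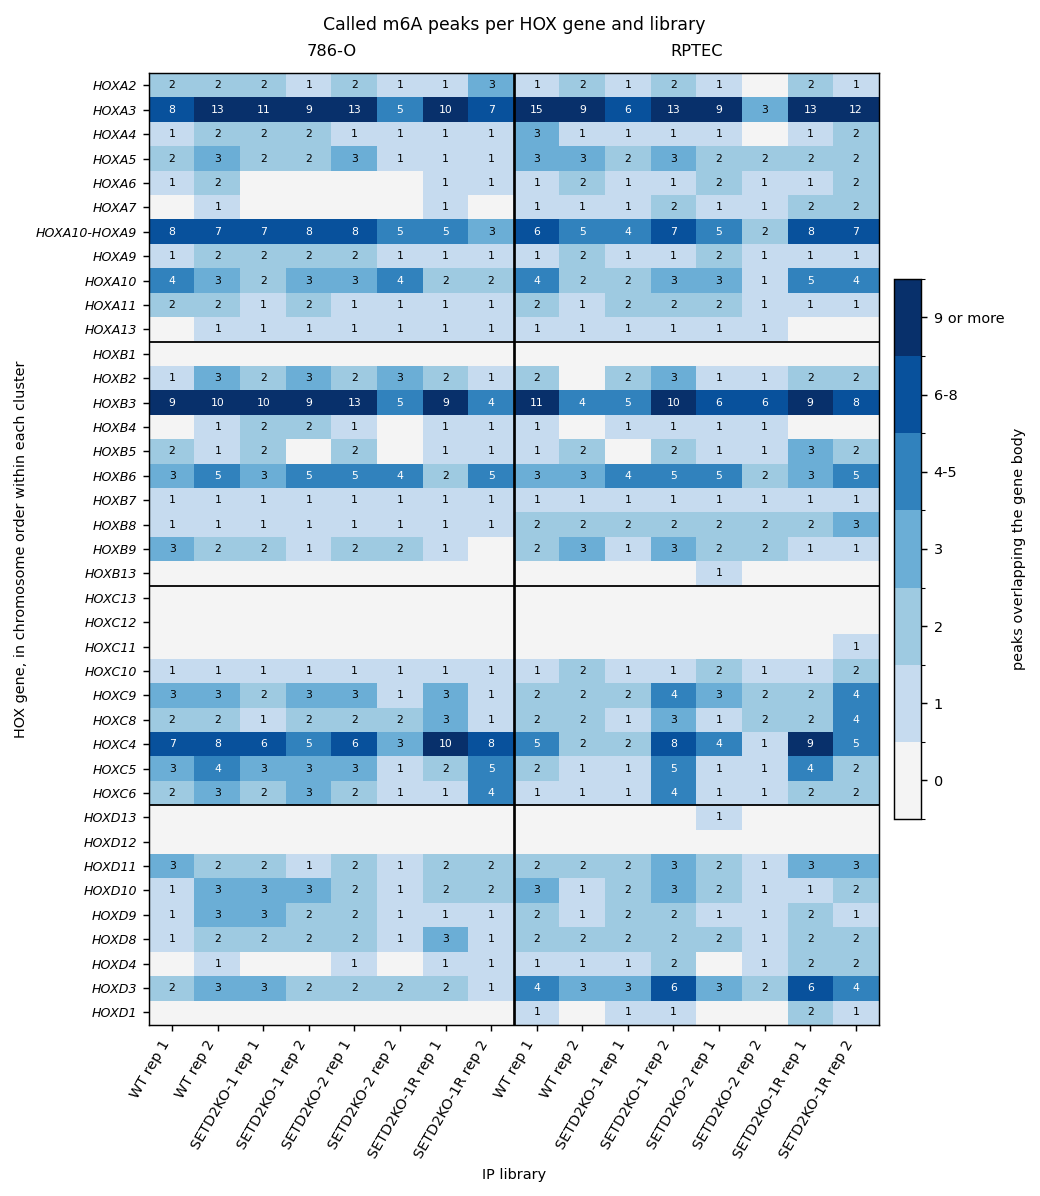
Number of called peaks that overlap each of 39 HOX cluster genes (vertical axis, in chromosome order within each cluster) in each of the 16 IP libraries (horizontal axis, 786-O left and RPTEC right). Colour and digit give the number of peaks, and an empty cell is no call. HOXB1, HOXC12, HOXC13 and HOXD12 are empty throughout, HOXB8 changes from 1 peak to 2 or 3 between the cell lines, and HOXA6 is empty in the 4 SETD2KO libraries of 786-O.

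In HOXA all 12 genes were called in 8 or more libraries and 6 in all 16. HOXA3, HOXA5, HOXA9, HOXA10, HOXA11 and HOXA10-HOXA9 were the 6. HOXA3, whose body is 45574 bp long, had 5 to 13 peaks per 786-O library and 3 to 15 per RPTEC library. HOXA5 had 1 to 3 and 2 to 3, and HOXA9, a regulator of blood progenitors, had 1 to 2 in both. HOXA10, needed for development of the uterus, had 2 to 4 and 1 to 5. HOXA11, the kidney patterning gene, had 1 to 2 in both. HOXA2, which acts in the hindbrain, and HOXA4 were each called in 8 786-O and 7 RPTEC libraries. HOXA13, which patterns the limb and the urogenital tract, was called in 7 and 6.

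In HOXB 4 of 10 genes were called in all 16 libraries and 8 in 8 or more. HOXB3 had 4 to 13 peaks per 786-O library and 4 to 11 per RPTEC library, and HOXB6 2 to 5 in both. HOXB7 had exactly 1 peak in each of the 16 libraries, and HOXB8 was called in all of them with a number of peaks that differed by cell line. HOXB2 was called in 8 786-O and 7 RPTEC libraries, HOXB9 in 7 and 8, HOXB5 in 6 and 7 and HOXB4 in 6 and 5. The series of called genes ran from HOXB9 to HOXB2 without a gap and stopped before HOXB1 on 1 side and HOXB13 on the other.

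In HOXC the boundary was sharp. HOXC10, HOXC9, HOXC8, HOXC6, HOXC5 and HOXC4 were called in all 16 libraries. Their neighbours HOXC11, HOXC12 and HOXC13 had 1 call among them. HOXC10 had 1 peak in every 786-O library and 1 to 2 in RPTEC, HOXC9 had 1 to 3 and 2 to 4, and HOXC8 had 1 to 3 and 1 to 4. HOXC4 had 3 to 10 and 1 to 9, HOXC5 1 to 5 in both and HOXC6 1 to 4 in both.

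HOXD showed the same kind of block. HOXD11, HOXD10, HOXD9, HOXD8 and HOXD3 were called in all 16 libraries. HOXD4 was called in 4 786-O and 7 RPTEC libraries, HOXD1 in 0 and 5, and HOXD12 in none. HOXD11, the other kidney patterning paralog called throughout, had 1 to 3 peaks per library in both cell lines. HOXD10 had 1 to 3 in both, HOXD9 1 to 3 and 1 to 2, and HOXD8 1 to 3 and 1 to 2.

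By paralog group, every gene of groups 3, 8 and 10 was called in all 16 libraries. In group 9 HOXA9, HOXC9 and HOXD9 were, with HOXB9 in 15. In group 11 HOXA11 and HOXD11 were called in 16 and HOXC11 in 1, so the paralogs of 1 group were not called alike. Both members of group 12 were called in none, and in group 13 HOXA13 had 13 libraries while HOXB13, HOXC13 and HOXD13 had 1, 0 and 1. Of groups 4 to 8, all 15 genes were called in 8 or more libraries, compared with 6 of 8 in groups 1 to 3 and 10 of 16 in groups 9 to 13. These shares depend on nesting, so no excess of groups 4 to 8 is read from them. In groups 4 to 8, HOXA4, HOXA5, HOXA6, HOXB4, HOXC5, HOXC6 and HOXD4 had only peaks that also overlapped another protein-coding gene. In groups 9 to 13, HOXA9 and HOXA10 did too.

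Peaks at HOX genes had a median length of 452 bp, against 395 bp for all peaks. Where a peak overlapped a single gene, its summit was placed along that gene from start to end. Of the HOX summits, 18.5% in 786-O and 17.3% in RPTEC lay in the last 20% of the gene. For other protein-coding genes the shares were 32.0% and 33.6%, and for those of a like length 30.9% and 32.8%. The first 20% held 23% and 25.1% of HOX summits and 20.4% and 19.1% of the others. The HOX share was lower at the downstream end and higher at the upstream end. This is a description over summits that share genes, with no test, and exons were not used here.

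Peaks of the 16 libraries were merged into regions, 121 of which overlapped a HOX gene. HOXA had 38, HOXB 35, HOXC 25 and HOXD 23. All 16 libraries called 18 of them, or 14.9%, where 4.25% of the 99258 regions of the genome were called in all 16. A merged region can reach past its gene, and in 16 of the 18 a peak lay over a HOX gene in every library. A single library called 24 HOX regions, or 19.8%, against 37.2% of all regions. Both cell lines called 84 of the 121 HOX regions, where 44.6% of all regions were called in both. Of the others, 15 were called in 786-O alone and 22 in RPTEC alone, against 33.7% and 21.7% of all regions.

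**Figure D2:**
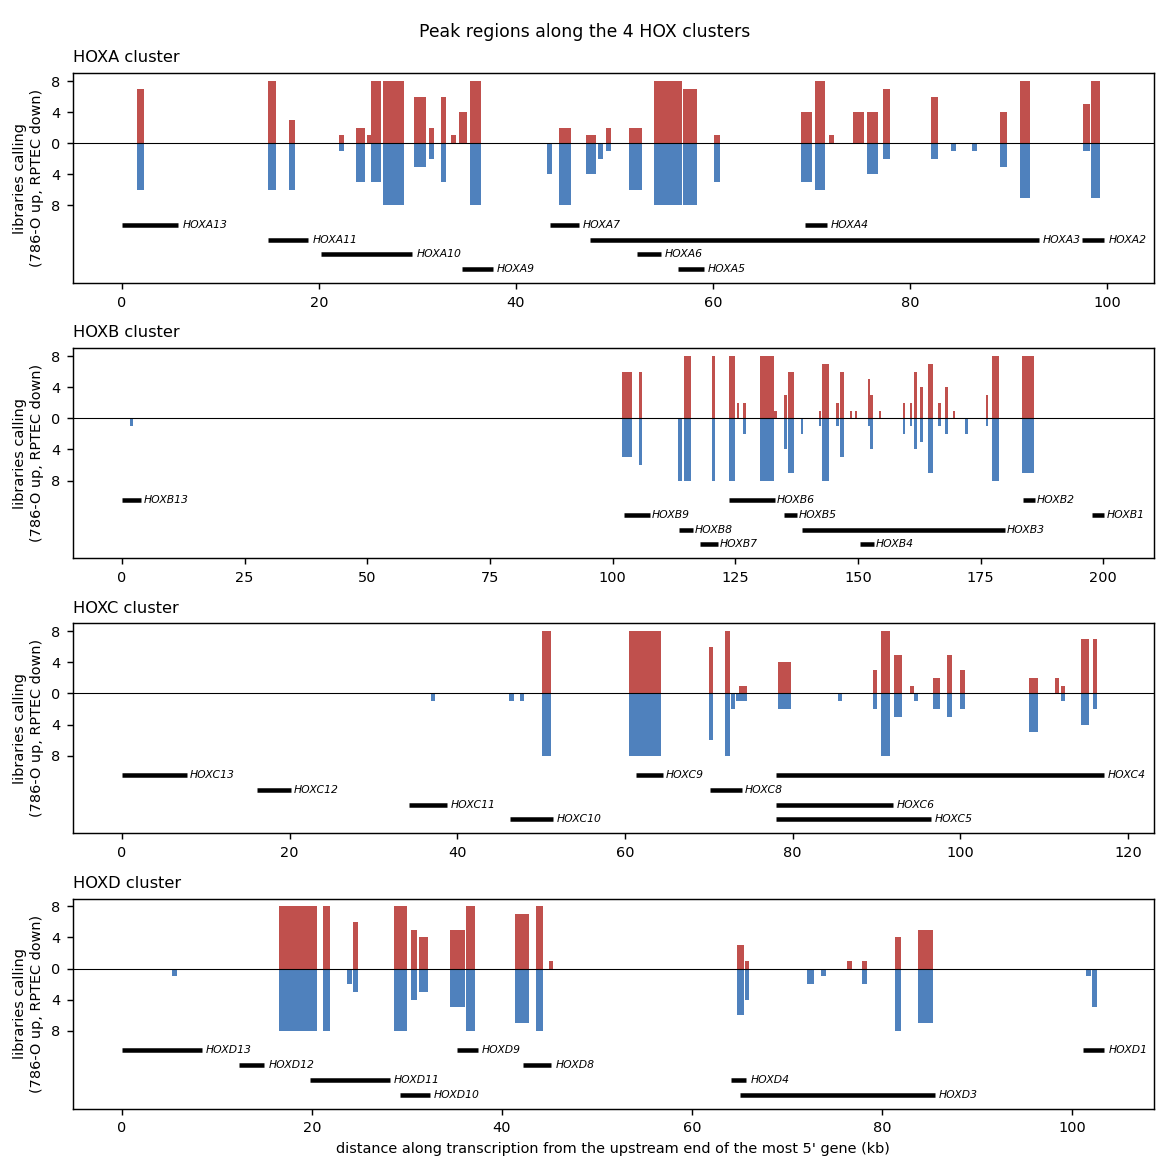
Peak regions along the 4 HOX clusters, drawn in the direction of transcription, with distance in kb from the upstream end of the most 5′ gene on the horizontal axis. Bar height is the number of libraries that called the region, 786-O upward in red and RPTEC downward in blue (8 at most), and black lines are gene bodies. Calls begin at HOXC10 and just upstream of HOXD11 and hardly occur over the genes upstream of them, and the bar at HOXB8 that points downward alone is the region called in RPTEC only.

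Where a region was called, the rank of its score within each list (percentile, 100 the highest) gave a further measure. No source gives the units of the score, which served for rank only. The region inside HOXD11 (chr2:176108665-176109391) ranked at 91.3 ± 4.81 in 786-O and 92.5 ± 4.85 in RPTEC (SD, n = 8 each). Of the 16 regions with a peak over a HOX gene in every library, this was the highest mean in 786-O and came second in RPTEC to the region over the HOXB6 start (chr17:48603899-48605136), at 93.7 ± 3.34. The HOXB6 body was reached by that region's peaks in all 16 libraries, but a summit lay inside the body in only 6, and the best-scored summits lay between 114 bp after and 43 bp before the annotated start. A further region upstream of HOXD11 (chr2:176104045-176108038) ranked higher, at 95.9 ± 6.67 and 97.0 ± 2.29. Its peaks reached the HOXD11 body in 5 of the 16 libraries, and its best-scored summits lay before the annotated start in all 16, so its rank is not that of a peak in HOXD11. Over all regions called in all 16 libraries the median was 76.8 in 786-O and 74.7 in RPTEC. The region over the HOXD10 start (chr2:176116080-176117449) ranked at 75.8 ± 9.69 and 80.4 ± 7.67, and its summits in all 16 libraries lay within 54 bp of each other. At HOXB7 (chr17:48607807-48608418) the rank was 89.7 ± 3.93 and 84.6 ± 8.45. The lowest means were at HOXD8 (chr2:176131053-176131796), 55.4 ± 16.1 and 58.3 ± 17.2, and at the region shared by HOXA3, HOXA5 and HOXA6 (chr7:27143244-27146114), 42.5 ± 19.0 and 61.9 ± 16.4.

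Between the cell lines no rank of these 18 regions passed the test (two-sided exact permutation test over 12870 arrangements, adjusted over the 4220 such regions of the genome). The background is 0.0% in either direction, since no region of the 4220 passed. The smallest p among them was at the region over the HOXB6 start, where antisense HOXB-AS3 also lies, so its rank need not be that of HOXB6 RNA. It ranked at 71.6 to 90.6 in 786-O (median 85.0) and at 89.2 to 97.0 in RPTEC (median 94.8), ranges that overlap only between 89.2 and 90.6 (exact permutation p = 0.000466, adjusted p = 0.0757). The region shared by HOXA3, HOXA5 and HOXA6 came next (p = 0.0483, adjusted p = 0.346, exact permutation test), and the other 16 had unadjusted p over 0.05.

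**Figure D3:**
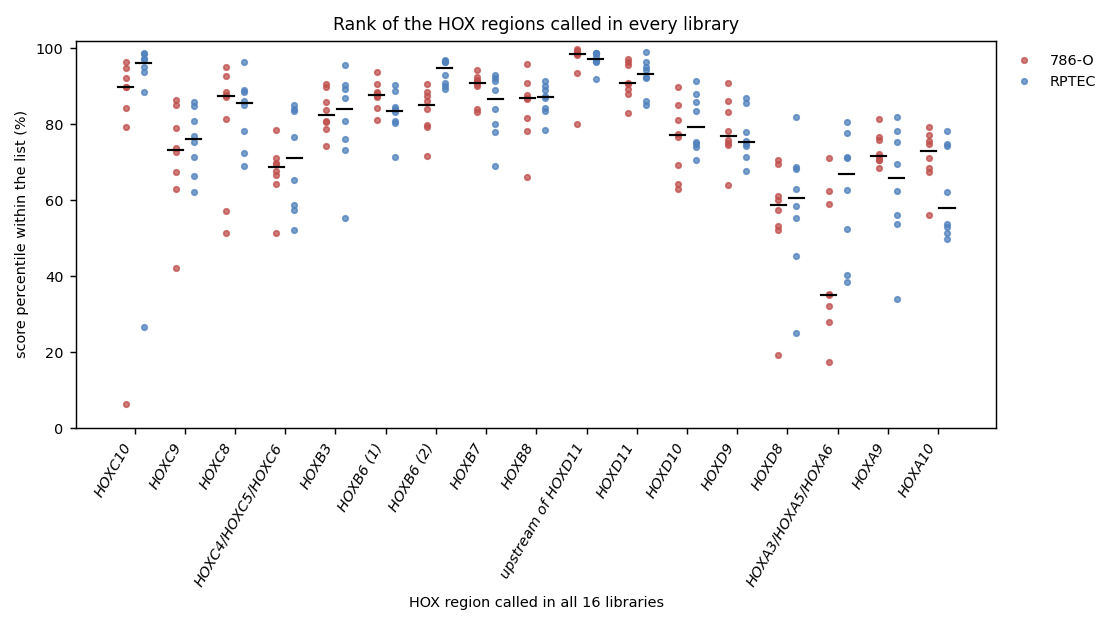
Percentile of the peak score within each list (vertical axis, %) at 17 of the 18 HOX regions called in all 16 libraries (horizontal axis), with 1 point per library, 786-O in red and RPTEC in blue, and a black line at the median of 8 libraries. The region upstream of HOXD11 stands at the top in both cell lines, the second HOXB6 region, over the start, has medians of 94.8 in RPTEC and 85.0 in 786-O, and single libraries lie far below the rest at HOXC10 and HOXD8.

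The comparison of 786-O with RPTEC asks whether the carcinoma line and the immortalized tubule line carry m6A on different HOX genes. Each 786-O library called 27 to 32 HOX genes (29.4 ± 1.92, SD, n = 8) and each RPTEC library 30 to 33 (31.5 ± 1.07). Of all protein-coding genes, a 786-O library called 44.7% to 51.2% and an RPTEC library 38.6% to 48.3%, so the RPTEC range was the lower for all genes and the higher for HOX genes. HOX peaks were 0.149% to 0.212% of a 786-O list and 0.187% to 0.284% of an RPTEC list, although RPTEC lists were shorter, at 19249 to 31207 peaks against 25710 to 39670. HOXC was called at 6 genes in every library but RPTEC SETD2KO-1R replicate 2, which called 7. HOXA genes called numbered 9 to 12 per 786-O library and 10 to 12 per RPTEC library, HOXB genes 6 to 8 and 6 to 9, and HOXD genes 5 to 6 and 6 to 7. The ranges overlapped for every cluster, and these counts over members are given with no test.

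**Figure D4:**
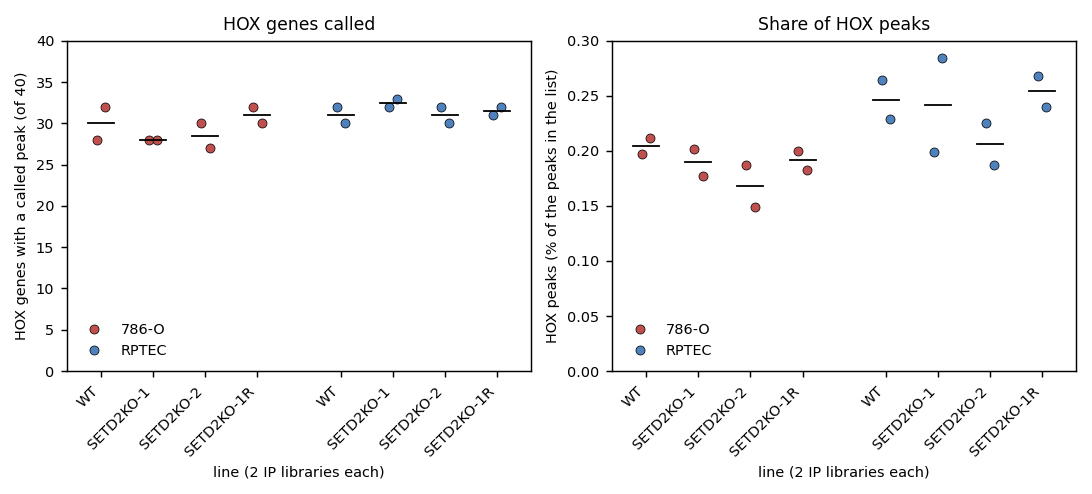
HOX genes with a called peak, of 40 (left, vertical axis), and HOX peaks as % of all peaks in the list (right, vertical axis) for the 4 lines of 786-O (red) and RPTEC (blue) on the horizontal axis. Points are IP libraries and black lines the mean of 2. Gene counts run from 27 to 33 and overlap between cell lines and between SETD2KO and SETD2-expressing lines.

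By gene, no HOX gene passed the two-sided Fisher's exact test of called libraries (8 against 8, Benjamini-Hochberg over 13420 protein-coding genes called in at least 1 library). Of those genes, 0.425% were called more often in 786-O and 0.693% more often in RPTEC. At an unadjusted p under 0.05, 2 of the 36 HOX genes tested were called more often in RPTEC, HOXA7 and HOXD1, and 0 in 786-O. Of the 13420 genes, 3.11% and 4.34% met that threshold in these directions. HOXA7 was called in 2 of 8 786-O libraries, WT replicate 2 and SETD2KO-1R replicate 1, and in all 8 RPTEC libraries (exact p = 0.00699, adjusted p = 0.175). Its peaks ranked at percentiles 19.8 and 24.6 in those 786-O libraries and at 34.3 to 71.2 in RPTEC. When each list was cut to the same number of top peaks, 19249, HOXA7 was called in 0 of 8 and 8 of 8 libraries and passed (Fisher's exact test, adjusted p = 0.0144). HOXD1 was called in 0 of 8 and 5 of 8 (exact p = 0.0256, adjusted p = 0.41).

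The number of peaks per gene added HOXB8, a patterning gene that also acts in blood and brain immune cells. Every 786-O library had 1 peak at HOXB8. In RPTEC, 7 libraries had 2 peaks and SETD2KO-1R replicate 2 had 3. The groups did not overlap (exact permutation test over 12870 arrangements, p = 0.000155, the smallest that test can give, adjusted p = 0.00831). Of 13420 genes, 1.92% had more peaks in RPTEC and 3.44% more in 786-O by the same test, and HOXB8 was the only HOX gene among them.

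The peak that the cell lines shared had its summit 1748 to 1830 bp from the HOXB8 start in 786-O and 1660 to 1835 bp in RPTEC. It ranked at 84.3 ± 9.11 in 786-O and 86.4 ± 4.22 in RPTEC, so the shared peak was alike in rank. The further RPTEC peak lay at the 5′ end of the gene, with summits from 2 bp before to 695 bp after the annotated start. Its region, chr17:48614539-48615471, was called in 0 of 8 786-O and 8 of 8 RPTEC libraries (Fisher's exact test, adjusted p = 0.0479 over all 99258 regions). Of all regions, 0.152% were called more often in RPTEC and 0.172% more often in 786-O, and this was the only HOX region. It ranked at 27.5 to 78.3, with WT at 55.7 and 27.5, SETD2KO-1 at 78.3 and 47.4, SETD2KO-2 at 77.8 and 30.0 and SETD2KO-1R at 66.4 and 77.4. When only the better-scored 50% of every list was kept it was called in 0 of 8 and 5 of 8 libraries (Fisher's exact test, adjusted p = 0.91), and with equal list lengths in 0 of 8 and 8 of 8 (adjusted p = 0.0564).

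**Figure D5:**
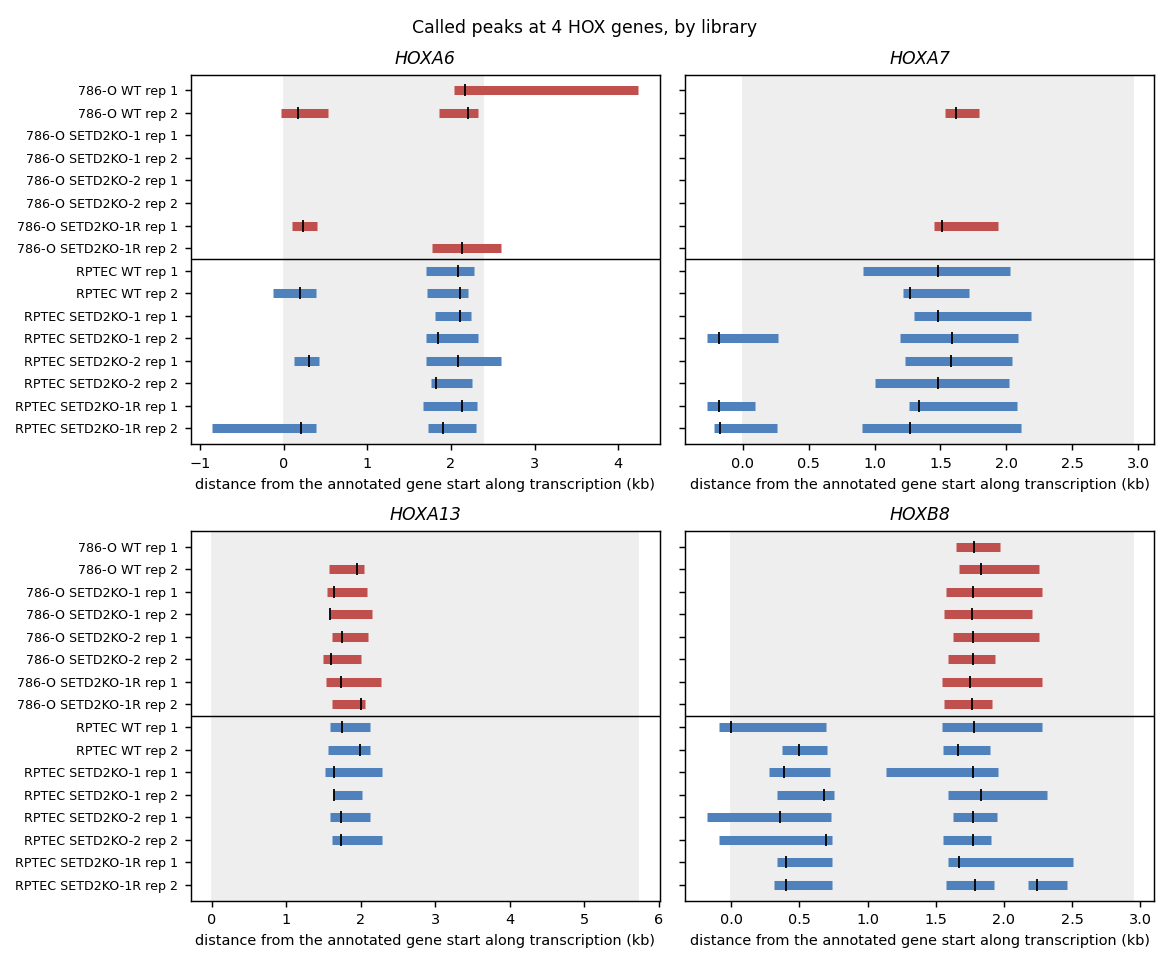
Called peaks at HOXA6, HOXA7, HOXA13 and HOXB8 by library (vertical axis), against distance from the annotated gene start along transcription in kb (horizontal axis). Bars are peaks, red in 786-O and blue in RPTEC, black ticks are summits and grey is the gene body. HOXB8 has a further peak near its start in all 8 RPTEC libraries, HOXA6 has no peak in the 4 SETD2KO libraries of 786-O, and HOXA13 has none in 786-O WT replicate 1 and the 2 SETD2KO-1R libraries of RPTEC.

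Other HOX genes leaned by cell line without passing. HOXD3 had 2, 3, 3, 2, 2, 2, 2 and 1 peaks in 786-O and 4, 3, 3, 6, 3, 2, 6 and 4 in RPTEC, in the order WT, then both knockout clones, then SETD2KO-1R, with replicate 1 first (exact permutation p = 0.0104, adjusted p = 0.107). Its ranges overlap at 2 and 3 peaks. HOXA6 was called in 4 of 8 786-O and 8 of 8 RPTEC libraries (Fisher's exact p = 0.0769, adjusted p = 0.748), and HOXD4 in 4 and 7 (p = 0.282). Toward 786-O, the region at the downstream end of HOXC4 (chr12:54054641-54055180) and the region at the inner HOXA3 start (chr7:27122144-27122839) were each called in 7 of 8 786-O and 2 of 8 RPTEC libraries (Fisher's exact p = 0.0406, adjusted p = 1.0). Of the cell type markers, SLC5A2 differed by cell line (Fisher's exact test over genes, adjusted p = 0.0139). COL1A1, in 1 of 8 and 6 of 8 libraries, did not pass (Fisher's exact test, adjusted p = 0.545). Their part in these differences was not tested.

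The comparison by SETD2 status asks whether HOX calls depend on SETD2 and return with the transgene. In 786-O, HOX genes called numbered 28 and 32 in WT, 28 and 28 in SETD2KO-1, 30 and 27 in SETD2KO-2 and 32 and 30 in SETD2KO-1R. In RPTEC they were 32 and 30, 32 and 33, 32 and 30, and 31 and 32. SETD2KO and SETD2-expressing libraries overlapped in both cell lines. The 4 SETD2KO libraries of 786-O called 9 to 10 HOXA genes and the 4 SETD2-expressing libraries 10 to 12, whereas HOXC was at 6 in all 8. HOXB was at 6 to 8 and 7 to 8, and HOXD at 5 to 6 in both. In RPTEC, HOXA was at 10 to 12 and 11 to 12, and HOXB at 7 to 9 and 6 to 8. HOXC was at 6 and 6 to 7 there, and HOXD at 6 to 7 in both. Of all protein-coding genes, the SETD2KO libraries called 45.2% to 51.2% in 786-O and 38.6% to 47.1% in RPTEC, and the SETD2-expressing libraries 44.7% to 50.4% and 42.1% to 48.3%.

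HOXA6 was the only HOX gene whose calls separated by SETD2 status. In 786-O it had 1 and 2 peaks in WT, 0 in the 2 libraries of SETD2KO-1 and the 2 of SETD2KO-2, and 1 and 1 in SETD2KO-1R. Calls were thus present in 4 of 4 SETD2-expressing and 0 of 4 SETD2KO libraries (two-sided Fisher's exact p = 0.0286, the smallest that 4 against 4 allow, adjusted p = 1). Of the 12430 genes called in 786-O, 0.282% split this way and 0.426% the opposite way, against 1 and 0 of the 32 HOX genes called. In RPTEC, HOXA6 had 1 or 2 peaks in every library, SETD2KO or not. The difference between the cell lines in this SETD2 contrast was not past the test (exact permutation of SETD2 status within cell line, 4900 arrangements, p = 0.243, adjusted p = 1).

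The 4 SETD2-expressing 786-O libraries did not share a HOXA6 peak position. WT replicate 1 and SETD2KO-1R replicate 2 had a peak near the downstream end, with summits 2164 and 2126 bp from the start. SETD2KO-1R replicate 1 had a peak near the start, with its summit at 224 bp, and WT replicate 2 had both, at 164 and 2203 bp. Ranks were 71.1, 41.8, 38.9, 31.2 and 35.2, and when only the better-scored 50% of every list was kept HOXA6 was called in 1 of the 4, with equal list lengths in 2. All HOXA6 peaks also lay in the body of HOXA3, and antisense HOXA-AS3 covers the same stretch. No HOX region split 4 against 0 in either direction in 786-O, where 0.478% of all regions were called in SETD2KO alone and 0.15% in SETD2-expressing libraries alone.

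HOXC4 separated by number of peaks in 786-O. It had 7 and 8 peaks in WT, 6 and 5 in SETD2KO-1, 6 and 3 in SETD2KO-2 and 10 and 8 in SETD2KO-1R, so every SETD2-expressing library was above every SETD2KO library (exact permutation p = 0.0286, adjusted p = 1). With HOXA6 this made 2 of 32 HOX genes, where 0.901% of genes separated this way and 1.52% had more peaks in every SETD2KO library, the latter with 0 HOX genes. In RPTEC HOXC4 had 5 and 2, 2 and 8, 4 and 1, and 9 and 5 peaks in the same order, which overlap. No HOX gene separated by peak number in RPTEC, where 1.01% of genes were higher in every SETD2KO and 1.41% in every SETD2-expressing library.

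Taken line by line, 786-O had 1 HOX gene called in both WT libraries and no SETD2KO library, HOXA6 (1.26% of genes), and 0 called in all SETD2KO and no WT library (1.21%). In both SETD2KO-1R and no SETD2KO-1 library, 2 HOX genes were called, HOXD4 and HOXA6 (2.22%), and 0 the other way (3.39%). HOXD4 was also absent from 786-O WT replicate 1 and present in SETD2KO-2 replicate 1, so it did not follow SETD2 status across lines. None was called in WT and all SETD2KO libraries but absent after rescue (0.869%).

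In RPTEC no HOX gene split by SETD2 status, in SETD2KO alone (0.517% of 12185 genes) or in SETD2-expressing libraries alone (0.394%), of 36 called. At 4 against 4 no gene of either cell line reached an adjusted p under 0.05 by Fisher's exact test, with 0.0286 the smallest unadjusted p, and no HOX gene of RPTEC reached it. No HOX gene was called in all SETD2KO and no WT library (1.4%) or in both WT and no SETD2KO library (1.17%), nor in both SETD2KO-1R and no SETD2KO-1 library (3.12%). Both SETD2KO-1 libraries and no SETD2KO-1R library called 2 HOX genes (2.59%), HOXA13 and HOXB4. HOXA13 had 1 peak in each of the 6 WT and SETD2KO libraries of RPTEC and 0 in the 2 of SETD2KO-1R, which 0.312% of genes did. Its peak lay at 1635 to 1984 bp from the start by summit. It ranked at 30.2 and 22.0 in WT, 62.0 and 73.3 in SETD2KO-1 and 34.4 and 85.1 in SETD2KO-2. In 786-O the peak of WT replicate 2 ranked at 72.2, within the SETD2KO range of 61.8 to 82.4. When only the better-scored 50% of every list was kept, HOXA13 was called in 3 of 4 SETD2KO and 0 of 4 SETD2-expressing libraries of RPTEC, and with equal list lengths in 4 and 2. No share of all genes was taken for these ranks or counts, so nothing particular to HOXA13 is read from them. HOXB4 had 1 and 0 peaks in WT, 1 and 1 in SETD2KO-1, 1 and 1 in SETD2KO-2 and 0 and 0 in SETD2KO-1R. All HOXB4 peaks also lay in HOXB3, and without WT replicate 1 HOXB4 was the 1 HOX gene called in SETD2KO alone.

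By region, in RPTEC 2 HOX regions were called in all 6 WT and SETD2KO libraries and in neither of SETD2KO-1R, at HOXA11 (chr7:27182562-27183156) and at HOXA13 (chr7:27197809-27198605), where 0.119% of regions were. In 786-O 0 HOX regions did so (0.471% of regions). The HOXA13 region was called in 7 of 8 786-O libraries, and the HOXA11 region in 3. Regions called in both SETD2KO-1 and no SETD2KO-1R library numbered 5 in 786-O (4.8% of regions) and 4 in RPTEC (2.8%), and those called the other way 0 (1.98%) and 3 (3.31%). Both WT and no SETD2KO library called 1 HOX region in 786-O (1.51%) and 0 in RPTEC (1.46%). No HOX region of RPTEC was called in SETD2KO alone (0.281%) or SETD2-expressing libraries alone (0.213%).

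By rank, 1 of the 18 regions called in all 16 libraries separated by SETD2 status, the region over the HOXB6 start in RPTEC, where HOXB-AS3 lies too. It ranked at 97.0 and 96.6 in WT, 90.1 and 90.8 in SETD2KO-1, 93.1 and 89.2 in SETD2KO-2 and 96.5 and 96.5 in SETD2KO-1R. Every SETD2-expressing library was above every SETD2KO library (exact permutation p = 0.0286, the smallest that 4 against 4 allow, adjusted p = 0.98 over the 4220 regions). In RPTEC 1.49% of those regions separated this way and 1.42% the opposite way. In 786-O the same region ranked at 88.5 and 79.4, 90.6 and 79.9, 86.0 and 87.4, and 71.6 and 84.0 in the same order, which overlap (exact permutation p = 0.286). No HOX region separated by rank in 786-O, where 2.3% of regions were higher in every SETD2-expressing and 1.68% in every SETD2KO library. The comparison by rank was added after seeing the data.

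Across both cell lines, the difference between the SETD2 contrasts in peak number was tested for all 13420 genes by exact permutation. None passed after adjustment (0.0%), 485 had an unadjusted p under 0.05, and 0 of the 36 HOX genes tested were among these.

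Within the clusters, noncoding genes and microRNAs share these stretches. Of 23 such genes, 4 were called in all 16 libraries, HOTAIRM1, HOXA-AS3, HOXB-AS1 and HOXB-AS3, and 10 in 8 or more. Of all 20216 long noncoding and microRNA genes of the table, 2.34% were called in all 16 and 8.72% in 8 or more. Without strand, a peak over such a gene may be that of a HOX gene beside or over it. HOTAIR and HOTTIP, long noncoding RNAs of the 5′ parts of HOXC and HOXA, were among the 7 called in none. MIR196B was overlapped by a peak in 6 of 8 786-O and 3 of 8 RPTEC libraries (region chr7:27169185-27170396), where the peak marks a longer RNA over the locus and not the mature microRNA printed above. MIR196A1, MIR196A2, MIR10A, MIR10B and MIR615 were overlapped in none of the 16.

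Of 12 genes flanking the clusters, SKAP2 and HIBADH beside HOXA were called in all 16 libraries and 5 in 8 or more, against 23.1% and 48.5% of all protein-coding genes. EVX1 and EVX2, homeobox genes at the 5′ ends of HOXA and HOXD, were called in none, as were PRAC1, PRAC2 and TTLL6 near HOXB13.

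Among the partners of HOX proteins, 3 of 9 TALE homeodomain cofactors were called in all 16 libraries, PBX2, MEIS2 and PKNOX1, and 5 in 8 or more, with PBX3 in 15 and PBX4 in 9. Of 15 regulators of HOX transcription, 6 were called in all 16 and 11 in 8 or more. The shares for all protein-coding genes were 23.1% and 48.5%, and nothing particular to either list is read from its counts. Among these were KMT2A, the H3K4 methyltransferase that keeps HOX genes active, and the Polycomb genes CBX2, CBX8, BMI1 and RING1. EZH2, the H3K27 methyltransferase, was called in 8 of 8 786-O and 5 of 8 RPTEC libraries, and CBX7 in 7 and 1 (Fisher's exact test, adjusted p = 0.227). The CDX genes, activators of HOX genes in the embryo, were called in none. Of the HOX11 kidney partners PAX2 was called in all 16 libraries, GDNF in 0 786-O and 5 RPTEC, EYA1 in 0 and 3 and SIX2 in none. Calls leaned by SETD2 status in both directions. In RPTEC, GDNF was called in 4 of 4 SETD2KO and 1 of 4 SETD2-expressing libraries, and EYA1 in 3 and 0. The other way, EZH2 in RPTEC was called in 1 and 4, and RNF2 in 786-O in 0 and 3. None of these 41 genes passed the test between the cell lines or split 4 of 4 against 0 of 4 by SETD2 status.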

How the data were processed

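m6A was measured by MeRIP-seq in 16 IP libraries with 16 matched Input samples. The authors added E. coli RNA as a spike-in, fragmented the RNA, prepared stranded libraries, aligned paired-end reads with STAR and counted them with HTSeq. Each IP library was scaled to its spike-in and set against its Input in MACS2, so peaks were called per library and replicates were not pooled. The submitters' processing notes name the build hg38. For each peak the deposited lists hold a whole-number score from 14 to 2122, of a scale no source names, and where its summit lies, in bp from its start. The remaining value columns were 0 in all 16 lists and were not used. No read counts are given, so depth is unknown and a single peak carries no interval. Only peaks with a MACS2 q-value of at most 0.05 were retained by the authors.

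Peaks were overlapped with gene bodies of the RefSeq table (GRCh38.p14, 20037 protein-coding genes) by at least 1 bp, without strand or exons. Gene strand was taken from the promoter table, which held 21 of the 40 HOX genes (in HOXB only HOXB1, in HOXC only HOXC4 and HOXC5), and the strand of its cluster was used for each other gene. Libraries were grouped by cell line and SETD2 status from the sample titles. Cell lines were compared by two-sided Fisher's exact test of called libraries and by exact permutation of peak number and rank, and SETD2 status by calls that did not overlap between 4 and 4 libraries, with Benjamini-Hochberg adjustment over all genes or regions tested and a threshold of 0.05. HOX genes called in 8 or more libraries are named with their values, and other lists by their counts. A few genes are not reported here by name. The members and lists were chosen with earlier results of these data known. Alternatives were an overlap of 50 bp, summits, the upper 50% by score, equal list lengths, peaks in a single protein-coding gene, a replicate block, lines as units, no filter, WT alone, and each library left out. Those by region and by rank, and the repeats for HOXA6, HOXA13 and HOXB8, were added after seeing the data. The Fisher step was tested on simulated data for 786-O against RPTEC with 13420 genes, where 200 of 200 planted genes and 0 others were called. Each planted gene was called in all 8 libraries of 1 cell line and in none of the other, so lesser differences were not tried. In the measured data, too, only such complete splits passed (largest p that passed 0.000155, Fisher's exact test). The software was SciPy 1.17.1, pandas 2.3.3 and NumPy 2.4.6 under Python 3.11.15, with Matplotlib 3.10.9 for figures.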

Additional observations from a re-analysis of the deposited data

Results flagged for a closer look

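Of 60 groups of 8 or 4 libraries examined, 6 held a library far from the others, where chance gives about 1 in 20. Each of the 6 groups had 8 libraries. In 786-O, the library was SETD2KO-1R replicate 2 in 3 of them. Its percentile was 6.27 at the HOXC10 region, against 79.3 to 96.5 in the others, 80.1 at the region upstream of HOXD11, against 93.4 to 99.8, and 19.2 at the HOXD8 region, against 52.1 to 70.5. In SETD2KO-2 replicate 2 of 786-O the median percentile over HOX peaks was 72.6, against 47.9 to 57.2. In RPTEC, WT replicate 2 stood at 26.7 at the HOXC10 region, against 88.4 to 98.8, and SETD2KO-1 replicate 1 at 91.9 at the region upstream of HOXD11, against 96.4 to 98.7.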

How the results depend on the processing

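HOXA6 was the 1 HOX gene called in SETD2-expressing 786-O libraries alone. The count was 0 with regions in place of genes, 0 with peaks in a single protein-coding gene, 0 with lists cut to equal length and 0 in the upper 50% by score, and HOXA6 itself was called in 0, 2 and 1 of the 4 SETD2-expressing libraries under the last 3. The count ranged from 1 to 1 with each library left out, where it could not fall, since a complete split stays complete. In RPTEC the count in SETD2KO alone was 0 and became 1 (HOXB4) without WT replicate 1, a range of 0 to 1. The count higher in RPTEC than in 786-O was 0 and became 1 by regions (HOXB8), 1 by peak number (HOXB8) and 1 with equal list lengths (HOXA7), and was 0 with each library left out. The adjusted p of the HOXB8 region (Fisher's exact test) was 0.0479, 0.0373 to 0.0453 with each library left out, 0.0564 with equal list lengths and 0.91 in the upper 50% by score. A complete split stays complete whichever library is left out, so the range with each library left out is no check of it. The mean number of HOX genes called was 29.4 in 786-O and 31.5 in RPTEC. It was 21.2 and 22.6 with peaks in a single protein-coding gene, 25.6 and 27 in the upper 50% by score and 27 and 30 with equal list lengths, and 29 to 29.7 and 31.3 to 31.7 with each library left out. The other counts kept their value.

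With a replicate block (4900 arrangements, smallest p = 0.000408 by exact permutation) 150 genes passed between the cell lines, 57 higher in 786-O and 93 in RPTEC, with 0 HOX genes. Of 28 pairs of lines, 7 correlated over 0.1 by replicate number (range -0.415 to 0.38). Of these, 6 were the pairs among 786-O SETD2KO-2 and SETD2KO-1R and RPTEC WT and SETD2KO-2 (0.248 to 0.38). Since not every pair was over 0.1, the numbers were not taken to pair the libraries. With lines as units the smallest exact p was 0.0286, and 0 genes passed after adjustment.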
